A study of Mus musculus with 12 samples.

Results

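Antibody transcripts of the mouse small intestine were followed in 39 probe sets of a table that held 34760. The members were every probe set annotated with an immunoglobulin symbol (starting with Igh, Igk or Igl, without Ighmbp2), which gave 33, plus 1 probe set each for Jchain, Pigr, Mzb1, Derl3, Tnfrsf17 and Pou2af1. Of the 33, 10 named heavy chain genes, 19 kappa genes and 2 lambda genes, and these 31 are called chain probe sets here. The rule also took in Igll1, a surrogate light chain gene of B cell precursors, and Iglon5, a cell adhesion gene that shares only the first letters of its name with the lambda locus.

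Total RNA came from the small intestine of 12 wild-type male FVB mice, labelled as 8 weeks of age, and each mouse gave 1 Affymetrix whole-transcript array. For 8 weeks 6 mice ate a control high-fat diet, and 6 ate a diet in which polyunsaturated fatty acids were low relative to saturated ones (low P/S diet). The fat content of the diets and the segment of intestine are not in the labels. The epithelial genes Vil1, Fabp2 and Krt8 were bright on the control diet, at geometric mean intensities of 5188, 9793 and 6275.

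Plasma cells of the lamina propria, the connective tissue under the gut epithelium, make much of the body's antibody, chiefly immunoglobulin A (IgA). Each antibody joins heavy chains to kappa or lambda light chains, and each chain joins a variable segment, picked by the cell from many in the genome, to a constant region. The J chain links IgA molecules to each other, and the polymeric immunoglobulin receptor encoded by Pigr carries them through the epithelial cell into the gut lumen.

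Transcripts of antibody chains were higher in the mice on the low P/S diet. Of the 31 chain probe sets 28 were bright enough to test, and 23 of these (82.1%) rose. Over all 28 tested, differences ran from 0.19 to 1.37 with a median of 0.73 on the log2 scale (1.66-fold). Brightness was judged by the mean over both diets, and 3 of the 28 (10545196, 10438415 and 10545180) reached the limit only through their low P/S values. Without these, 22 of 25 rose, and the median over the 25 was 0.80. With the dim ones included, all 31 differences were above 0, the smallest being 0.10. Jchain rose 1.73-fold, while the intensity of Pigr differed by a fold of 0.999 and did not pass. Of the 5 chain probe sets that did not pass, 2 were of the heavy chain, 2 of kappa and 1 of lambda. By limma no member passed as lower, and at an unadjusted p under 0.05 the count was also 0.

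A probe set is said to rise or fall where limma gave an adjusted p under 0.05 (Benjamini-Hochberg over all 13777 probe sets tested), and each difference is the low P/S mean less the control mean in log2 units ± standard error, with 6 mice per diet. Of all probe sets tested, 18.2% passed as higher and 7.32% as lower (25.5% in either direction), with a median difference of 0.03 and with 56.9% of differences above 0. Quantile normalization turned the split of 2502 higher and 1009 lower into 2031 and 1642. The arrays of the diets did not overlap, with every low P/S mouse above every control mouse, in 6.9% of all probe sets tested and in 10 of the 28 chain probe sets, and with every low P/S mouse below in 3.67% and in 0 of the 28. In bulk tissue, more cells of a type and more RNA per cell cannot be told apart.

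The arrays carry no value for a single antibody gene in many cases. Of the 31 chain probe sets, 16 named several symbols and 15 named 1, and 31 distinct immunoglobulin symbols were named in all. By the annotated transcripts, 19 chain probe sets shared an accession with at least 1 other, and the 31 fell into 19 groups that shared none, of which 13 held at least 1 member that rose. Among tested chain probe sets naming 1 symbol 9 of 12 rose, and among those naming several 14 of 16 rose. Variable segments of the germline differ between mouse strains, and how well the probes match the FVB genome was not tested. The position of each probe set within its locus was not known. A probe set annotated to Igha or Ighm alone is therefore not shown to read the constant region.

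Igha encodes the constant region of the alpha chain, the heavy chain of IgA. Probe set 10403034, annotated to Igha alone, had control intensities from 242 to 555 with a median of 349, and low P/S intensities from 415 to 891 with a median of 667. Low P/S mouse 2 was the lowest of its diet and lay below control mouse 5, the highest control, so the diets overlapped through these animals. The difference was 0.89 ± 0.18 (1.85-fold, adjusted p = 0.00285). The control mice 1 to 6 stood at 328, 242, 313, 370, 555 and 370, and the low P/S mice at 619, 415, 715, 891, 601 and 776.

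The other probe set of Igha alone, 10403063, listed the same 7 accessions and ranged from 437 to 676 (median 461) on the control diet and from 632 to 1108 (median 708) on the low P/S diet. It rose 1.52-fold (0.60 ± 0.14, adjusted p = 0.00574). Control mouse 1 was the one control animal within the low P/S range.

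A further 4 heavy chain probe sets named Igha together with variable segments. Among them only 10403021, annotated to Igha and Ighv1-33, had diets that did not overlap. It lay between 77.4 and 92.6 (median 89.3) in the control mice and between 150 and 284 (median 202) in the low P/S mice. It read 88.0, 88.7, 90.8, 89.8, 92.6 and 77.4 in control mice 1 to 6, against 150, 284, 166, 188, 217 and 215 in low P/S mice 1 to 6. It rose 2.27-fold (1.18 ± 0.12, adjusted p = 1.33e-05), the largest heavy chain difference, from a control level near the dim limit of the test (84.8, a mean over all arrays).

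Probe sets 10403015 and 10403018, both annotated to Ighg3, Igha, Ighv1-33 and Ighv1-26, shared 9 accessions and both rose. The first had control intensities from 240 to 456 (median 313) and low P/S intensities from 419 to 590 (median 561), a rise of 1.66-fold (0.73 ± 0.13, adjusted p = 0.000864). The second ran from 288 to 536 (median 336) in control and from 475 to 712 (median 626) in low P/S mice, a rise of 1.74-fold (0.80 ± 0.13, adjusted p = 0.000539). Control mouse 2 was the highest control animal in both and the one that reached into the low P/S range.

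Probe set 10403009, naming Ighv3-6 and Igha, did not pass. Its control intensities spread from 109 to 276 (median 139) and its low P/S intensities from 152 to 263 (median 175), and its difference was 0.27 ± 0.20 (adjusted p = 0.340). Here control mouse 4 was the highest of all 12 animals.

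The mu heavy chain belongs to IgM, the first antibody class a B cell makes. The annotation named Ighm alone for 3 probe sets, of which 2 rose. Probe set 10402864 lay from 104 to 117 (median 109) in control and from 121 to 142 (median 129) in low P/S mice, with no overlap, and rose 1.19-fold (0.26 ± 0.05, adjusted p = 0.00269). Probe set 10402991 ranged from 226 to 386 (median 286) and from 332 to 445 (median 392), with control mouse 3 inside the low P/S range, and rose 1.35-fold (0.44 ± 0.12, adjusted p = 0.0156). That call was lost with an ordinary variance per probe set (adjusted p = 0.0564).

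The third Ighm probe set, 10403069, varied widely within each diet, from 63.7 to 172 in control (median 79.2) and from 77.6 to 209 in low P/S mice (median 125), and did not pass (0.48 ± 0.27, adjusted p = 0.212). Ighg3, the constant region of an IgG subclass, had 1 probe set of its own (10403046) that was too dim to test, at 50.3 to 67.5 in control and 50.4 to 94.0 in low P/S mice.

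The kappa light chain is carried by most mouse antibodies. Of 19 kappa probe sets 17 were tested and 15 rose, and the median difference over the 17 was 0.88. The annotation of 4 probe sets included Igkc, the constant region. One of them, 10545198, which named 6 segments of the Igkv4 family, Igkv19-93 and Igkc, ranged from 444 to 997 (median 660) in control and from 1130 to 2557 (median 1400) in low P/S mice. It rose 2.39-fold (1.25 ± 0.21, adjusted p = 0.000711), with low P/S mouse 1 highest and no overlap of the diets.

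Of the other probe sets naming Igkc, 10545187 rose 2.36-fold (1.24 ± 0.21), with 145 to 291 in control and 315 to 780 in low P/S mice. Probe set 10545184, with the same 4 symbols, rose 1.82-fold (0.86 ± 0.12), with 135 to 199 in control and 260 to 414 in low P/S mice. Probe set 10545196 was below the intensity of 84.8 in every control mouse (61.6 to 79.1) and above it in every low P/S mouse (98.5 to 112), and differed by 1.45-fold (0.54 ± 0.06), so that it was tested only through the diet in which it was high. The diets did not overlap in any of these 3. The 4 share accessions with each other and do not count as independent readings of kappa transcripts.

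Variable segments named without Igkc rose in 11 of 13 tested cases. Igkv10-96 stood at 160 to 290 (median 232) in control and 420 to 471 (median 444) in low P/S mice, and rose 1.94-fold (0.96 ± 0.10, adjusted p = 2.89e-05). The probe set naming Igkv10-96 and the joining segment Igkj1 rose 1.87-fold (0.91 ± 0.11, adjusted p = 5.92e-05), with 177 to 306 in control and 338 to 471 in low P/S mice. In both, every low P/S mouse was above every control mouse.

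The largest difference of all members was that of Igkv19-93 in probe set 10545177, at 2.59-fold (1.37 ± 0.33, adjusted p = 0.00728). Its control mice spread from 111 to 477 (median 173) and its low P/S mice from 314 to 780 (median 471), and control mouse 2 alone reached into the low P/S range. A further Igkv19-93 probe set, 10545182, rose 1.93-fold (0.95 ± 0.23), with 124 to 225 in control and 181 to 599 in low P/S mice, but with other animals at the top. Control mouse 2, highest in the first, was not the highest in the second, where control mouse 1 led, and low P/S mouse 4 reached 599.

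Other segments rose by about as much. The probe set of Igkv1-133 and Igkv1-135 (10538871) rose 2.11-fold (1.07 ± 0.22), with 407 to 1351 in control and 1172 to 1605 in low P/S mice, with control mouse 2 in the low P/S range. Igkv9-120 (10538882) rose 2.08-fold (1.06 ± 0.24), with 122 to 279 in control and 248 to 734 in low P/S mice, with low P/S mouse 6 highest. Igkv6-14 with Igkv6-15 (10545247) rose 1.84-fold (0.88 ± 0.23, adjusted p = 0.0114), with 223 to 703 in control and 456 to 999 in low P/S mice, a call lost with an ordinary variance per probe set (adjusted p = 0.0525).

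The probe set naming Igkv4-59 and Igkv4-80 (10545194) rose 1.66-fold (0.73 ± 0.17), with 90.7 to 136 in control and 125 to 263 in low P/S mice, with 3 control mice in the low P/S range. Igkv4-55 (10545210) rose 1.43-fold (0.52 ± 0.10), with 114 to 151 in control and 149 to 212 in low P/S mice. Probe sets 10538921 and 10538880, which name Igkv9-120, Igk-V21, Igkv1-117 and the kinase gene Map3k20, rose 1.60-fold and 1.57-fold (0.68 ± 0.13 and 0.65 ± 0.13). How much of the signal of the last pair comes from Map3k20 was not tested.

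The 2 tested kappa probe sets that did not pass were Igkv6-20, with 86.7 to 349 (median 110) in control and 105 to 424 (median 161) in low P/S mice (0.19 ± 0.37, adjusted p = 0.739), and Igkv4-91, with 61.8 to 103 (median 81.8) and 67.5 to 217 (median 103; 0.34 ± 0.22, adjusted p = 0.256). Igkv5-43, at 39.4 to 65.9 in control and 41.2 to 115 in low P/S mice, and Igkv8-30, at 43.3 to 58.4 and 53.9 to 95.8, were too dim to test. With no filter on dim probe sets Igkv8-30 rose (0.47 ± 0.11, adjusted p = 0.00856) and Igkv5-43 did not pass (adjusted p = 0.331).

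Lambda light chains were read by 2 probe sets, both annotated to Iglv1, Iglv2 and Iglc1. Probe set 10438405 ranged from 109 to 145 (median 130) in control and from 151 to 215 (median 160) in low P/S mice, without overlap, and rose 1.36-fold (0.44 ± 0.09, adjusted p = 0.00362). Probe set 10438415 did not pass (0.65 ± 0.27, adjusted p = 0.0854), with low P/S mouse 1 at 339 while the other low P/S mice lay between 79.9 and 129 and the control mice between 65.4 and 122. It passed with array weights and without low P/S array 6 (lowest adjusted p over all settings 0.0461, highest 0.180). Igll1 was too dim to test, at 62.2 to 79.4 in control and 65.8 to 74.2 in low P/S mice.

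Jchain encodes the joining chain of IgA and IgM. Its intensities ran from 1006 to 1437 (median 1151) in control and from 1682 to 2365 (median 2066) in low P/S mice. Every low P/S mouse lay above every control mouse, and the difference was 0.79 ± 0.09 (1.73-fold, adjusted p = 5.07e-05). Over all alternative settings it stayed between 0.71 and 0.87. Mouse by mouse, the control intensities were 1190, 1437, 1219, 1098, 1113 and 1006 (mice 1 to 6), and the low P/S intensities were 2234, 1898, 2243, 2365, 1682 and 1829.

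Pigr encodes the receptor that exports IgA across the epithelium. It ran from 2640 to 3497 (median 3123) in control and from 2787 to 3526 (median 3042) in low P/S mice, and 5 of the 6 mice of each diet lay inside the range of the other. The difference was -0.0018 ± 0.073 with a 95% interval from -0.16 to 0.15 (adjusted p = 0.990). Mouse by mouse it stood at 3327, 3040, 2947, 3205, 3497 and 2640 in control and at 3526, 2787, 3353, 2871, 3016 and 3069 in low P/S mice. The interval of Jchain, from 0.59 to 0.99, lay above it. The sign of the Pigr difference turned with median centring (0.02).

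The promoters of this pair are shown because Jchain rose and Pigr did not pass. RefSeq windows (GRCm38.p6) of 250 bases before the annotated gene start are printed on the strand of the gene, at chr5:88527898-88528147 (minus strand) for Jchain and chr1:130826434-130826683 (plus strand) for Pigr. Capitals mark the E-box CACGTG, a sequence bound by basic helix-loop-helix factors.
Jchain: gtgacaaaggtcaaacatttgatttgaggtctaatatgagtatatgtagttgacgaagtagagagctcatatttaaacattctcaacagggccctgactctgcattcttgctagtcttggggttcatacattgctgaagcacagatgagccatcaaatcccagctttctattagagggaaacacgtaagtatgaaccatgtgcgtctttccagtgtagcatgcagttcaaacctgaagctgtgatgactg
Pigr: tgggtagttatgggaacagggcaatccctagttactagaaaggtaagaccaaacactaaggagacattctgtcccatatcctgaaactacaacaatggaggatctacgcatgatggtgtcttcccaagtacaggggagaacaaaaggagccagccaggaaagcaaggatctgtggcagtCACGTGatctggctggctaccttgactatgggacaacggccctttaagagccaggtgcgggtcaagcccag

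Both strands of the RefSeq windows, each with 250 bases before and 50 after a start, were searched for this E-box and for the octamer ATTTGCAT (ATGCAAAT on the other strand), the element of immunoglobulin promoters read by Oct factors with the coactivator encoded by Pou2af1. Of 40 symbols named by the members, 8 had a window in the table, 9 windows in all, and these did not include any variable segment. The octamer was in none of the 9 and in 1.74% of all 32851 windows. At that share so few windows cannot show a lack of the octamer. The 9 also include genes that encode no antibody chain, such as Pigr and Derl3. The E-box was in 7.15% of all windows and in those of Pigr, starting 71 bases before the gene start, and Derl3. A match describes letters in the window and was not tested as a binding site.

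None of the other plasma cell genes passed. Mzb1, a chaperone of antibody assembly in the endoplasmic reticulum, lay from 97.1 to 119 (median 99.6) in control and from 107 to 153 (median 118) in low P/S mice, a difference of 0.22 ± 0.08 (adjusted p = 0.0521). It passed in 8 of 22 alternative settings (adjusted p from 0.0240 to 0.119), median centring and quantile normalization among them. Pou2af1, the coactivator of immunoglobulin promoters, ranged from 100 to 123 (median 113) and from 112 to 202 (median 133; 0.29 ± 0.11, adjusted p = 0.0665). It passed in 4 of 22 settings (adjusted p from 0.0167 to 0.160). In both genes low P/S mouse 3 was highest.

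Derl3, a channel component for the disposal of misfolded secretory proteins, had a difference of 0.09 ± 0.05 (98.4 to 109 in control, 104 to 118 in low P/S mice, adjusted p = 0.184). Tnfrsf17, the survival receptor of plasma cells, was too dim to test, at 57.5 to 72.2 in control and 58.6 to 69.3 in low P/S mice. Iglon5, the unrelated adhesion gene, had a difference of -0.05 ± 0.06 (adjusted p = 0.518).

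Mice of one diet differed from each other more in the chain probe sets than in most others. The median SD of log2 values between mice of a diet was 0.32 over the 28 tested chain probe sets, 0.45 over the kappa and 0.27 over the heavy ones, against 0.11 over all probe sets tested. Of the 28, 26 lay above the 90th percentile of all tested probe sets (0.18) and 14 above the 99th (0.35). Igkv6-20 had an SD of 0.80, Igkv19-93 (10545177) of 0.71 and the third Ighm probe set (10403069) of 0.58. Jchain had an SD of 0.19, which was also above the 90th percentile, and Pigr of 0.14. These are descriptions of spread with no test.

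The animals that stood high differed from segment to segment. Igkv6-20 was high in control mice 1 and 2 (349 and 277) and low P/S mouse 3 (424), against 172 at most in the other 9 animals. Igkv6-14 with Igkv6-15 was highest in control mouse 3 (703) within its diet, Igkv9-120 in low P/S mouse 6 (734), Igkv4-91 in low P/S mouse 4 (217) and a lambda probe set in low P/S mouse 1 (339). Among control mice, mouse 2 was the highest in 9 of the 28 tested chain probe sets and mouse 4 in 2. Among low P/S mice, mouse 1 was the highest in 9 and mice 5 and 6 in 2 each.

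With the diet means removed, deviations of 2 chain probe sets had a median Pearson correlation of 0.07 over the 12 arrays (378 pairs, from -0.76 to 0.86). The highest was that of 10403015 with 10403018, which share 9 of their accessions. Pairs annotated to one gene alone were not always alike, with a correlation of 0.13 for the Igkv19-93 probe sets and 0.56 for those of Igha. The probe set of Igkv10-96 and the one naming Igkv10-96 with Igkj1 had a correlation of -0.08. Against Jchain the 28 had a median of 0.35, from -0.39 (Igha with Ighv1-33) to 0.80 (Ighm, 10402864). The arrays share their scaling, so these values describe the table.

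Outside the members, the 8 probe sets most like Jchain over the 12 arrays by the same measure were Thoc3 (r = 0.93), Cwc22 (r = 0.93), Commd2 (r = 0.91), Fam98a (r = 0.90), Ednrb (r = 0.88), Ftsj1 (r = 0.87), Get3 (r = 0.87) and Col6a3 (r = 0.87). They were the highest of all tested probe sets naming 1 gene, their Spearman correlations lay from 0.87 to 0.93, and without the 2 arrays farthest from the median of Jchain r lay from 0.81 to 0.89. Immunoglobulin probe sets and the other members were left out of this ranking beforehand. The r values are those of the top of the ranking, so they are high by selection, and they were not tested. None of the 8 is in the list of plasma cell transcription factors and surface receptors. Only 8 genes of that list were tested, so their absence from the top of the ranking says little.

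Of 8 tested plasma cell transcription factors and surface receptors, none rose, 2 fell and 6 did not pass, where 25.5% of all probe sets tested passed in either direction, with a median difference of -0.07 against 0.03 over all probe sets, and 5 of the 13 measured were too dim. By limma's unadjusted p under 0.05, 2 were higher and 3 lower. Creb3l2, a factor of the secretory pathway, was 1.43-fold lower (-0.51 ± 0.07, adjusted p = 0.000128) and the elongation factor gene Ell2 1.30-fold lower (-0.38 ± 0.07, adjusted p = 0.00121). Both are expressed in other cells too. The surface gene Sdc1 (-0.11 ± 0.05, adjusted p = 0.0820) and the regulators Prdm1 (-0.09 ± 0.07, adjusted p = 0.305) and Xbp1 (0.18 ± 0.08, adjusted p = 0.105) did not pass. The receptor Tnfrsf13b (0.11 ± 0.05, adjusted p = 0.0967) did not pass either, and Irf4 was too dim. How much of the signal of these genes comes from plasma cells in this bulk tissue was not tested. Tnfrsf13b rose with quantile normalization (adjusted p = 0.0373) and with median centring (adjusted p = 0.0405), and Sdc1 fell with quantile normalization (adjusted p = 0.0219) and with an ordinary variance (adjusted p = 0.0437).

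Genes of the secretory pathway, which folds and exports antibody but works in every secreting cell, rose in 17 of 24 tested cases, fell in 1 and did not pass in 6, with a median difference of 0.31. The disulphide isomerase gene Pdia6 rose 1.48-fold (0.57 ± 0.10), Ostc of the glycosylation complex 1.37-fold (0.46 ± 0.09), the chaperone gene Hsp90b1 1.28-fold (0.36 ± 0.07) and the translocon gene Ssr4 1.26-fold (0.34 ± 0.05). Herpud1, of the degradation pathway, was the one that fell (1.31-fold lower). Of the 24, 14 rose with an ordinary variance, and 15 with quantile normalization or without control arrays 1 and 2. Without low P/S array 3 there were 18 that rose, and with the replicate number as a block 19. Over all probe sets tested, 18.2% rose and 7.32% fell. The summed intensity of the list ran from 20488 to 25096 in control and from 24720 to 30326 in low P/S mice, and its part in the chain result was not tested.

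B cells that do not yet secrete were near the floor of the array. Of 21 measured B cell markers 15 were too dim to test, among them the defining genes Ms4a1, Cd79a, Pax5 and Cr2. Of the 6 tested, Ly86 (adjusted p = 0.0401) and Cd83 (adjusted p = 0.0289) rose, Ralgps2 fell (adjusted p = 0.0422) and 3 did not pass. Over all probe sets tested 18.2% rose and 7.32% fell, and which cells gave the signal of these genes was not tested. The 3 calls were close to the threshold. With an ordinary variance all 3 were lost, with quantile normalization Ly86 and Cd83 (adjusted p = 0.0513 and 0.0522), with median centring Ralgps2 (0.125), and without control arrays 1 and 2 Ralgps2 (0.147) and Ly86 (0.0828). Cd79b, of the B cell receptor, had a difference of 0.15 ± 0.15 (adjusted p = 0.482).

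One library stood apart in these markers. Low P/S mouse 3 was the highest of the 12 animals in 18 of 21 B cell markers and 9 of 18 germinal centre and follicle genes. There Ms4a1 stood at 168 against at most 50.9 in the other 11 mice, Cd79a at 193 against 65.8, Cr2 at 121 against 56.4 and the follicle chemokine gene Cxcl13 at 434 against 178. The same animal was the highest in 4 of the 28 tested chain probe sets. Without it, 23 of 28 chain probe sets rose, and the median difference over the 28 was 0.75. Jchain then differed by 0.76 and Igha (10403034) by 0.86, and no member's call changed. The B cell markers then had 1 of 6 higher, none lower and a median of -0.04 in place of 0.08.

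Of 8 tested germinal centre and follicle genes 1 rose (Ltbr, 1.30-fold), 1 fell (the germinal centre factor Bcl6, 1.28-fold lower) and 6 did not pass, with a median of -0.01, and without low P/S array 3 these were 2 higher and 2 lower. The share over all probe sets tested was 18.2% higher and 7.32% lower, and neither this list nor the next was tested against it. Signals of IgA class switching, plasma cell survival and homing rose in 3 of 13 tested cases, with a median of 0.08: the receptor Tgfbr2 of transforming growth factor beta (1.19-fold, adjusted p = 0.00363), the integrin Itga4 (1.18-fold, adjusted p = 0.0241) and the chemokine Cxcl12 (1.14-fold, adjusted p = 0.0235). With an ordinary variance Itga4 did not pass (adjusted p = 0.0543), and 2 of the 13 rose. The survival factor Tnfsf13b (-0.17 ± 0.09, adjusted p = 0.180) and the chemokines Ccl25 (0.05 ± 0.06, adjusted p = 0.596) and Ccl28 (0.08 ± 0.10, adjusted p = 0.580), which draw IgA cells to mucosa, did not pass.

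Around Pigr, none of 12 tested genes of signals known to raise its expression rose, 3 fell and 9 did not pass (median -0.03), and at limma's unadjusted p under 0.05 there were 3 higher and 4 lower. The interleukin 17 receptor genes Il17rc and Il17ra fell by 0.37 and 0.20 on the log2 scale, and Relb fell by 0.20. Among all probe sets tested 18.2% rose and 7.32% fell. With median centring 1 was higher, without low P/S array 3, or without control arrays 1 and 2, 2 were higher, and with quantile normalization 4 were lower. Of 4 tested Fc receptors and related genes Fcer1g rose 1.19-fold, B2m fell by 0.24 on the log2 scale and 2 did not pass (median 0.12). Fcer1g did not pass without low P/S array 3 (adjusted p = 0.0519), without control arrays 1 and 2 (adjusted p = 0.0764) or with an ordinary variance (adjusted p = 0.0750), nor did B2m with median centring (adjusted p = 0.0547). The transferrin receptor gene Tfrc, which did not pass (0.48, adjusted p = 0.0804), rose without control arrays 1 and 2 (0.71, adjusted p = 0.00947).

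Markers of other cells moved in both directions, where 18.2% of all probe sets tested rose and 7.32% fell. Macrophage and dendritic cell genes rose in 7 of 10 tested cases, led by the complement gene C1qc (1.48-fold), and by limma fell in none, with 0 lower at an unadjusted p under 0.05 as well (median 0.28, summed intensity 2564 to 2983 in control and 2999 to 3746 in low P/S mice). T cell genes fell in 5 of 8 cases (median -0.30, summed intensity 1859 to 2202 and 1498 to 1997), led by the granzyme gene Gzma (1.49-fold lower). Of the genes for class II antigen presentation 7 of 9 fell (median -0.53, summed intensity 5001 to 7815 and 3028 to 5104), among them H2-Ab1 (2.05-fold lower). The part of these cells in the chain result was not tested.

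Of 14 epithelial genes 1 rose, 4 fell (Vil1 by 0.30 on the log2 scale) and 9 did not pass, with a median of -0.00, which was 0.02 with median centring, where 1 fell. Without low P/S array 3, and with an ordinary variance, there were 2 that fell, and with quantile normalization none rose. In the main fit 18.2% of all probe sets tested rose and 7.32% fell. By limma no smooth muscle gene of 11 passed (median -0.06), with 0 at an unadjusted p under 0.05. None of 5 tested exocrine pancreas genes passed (median -0.10, with 2 lower at an unadjusted p under 0.05), but 2 fell without low P/S array 3 and 2 without control arrays 1 and 2, and neither did Kit, the 1 tested mast cell gene (-0.03). Of 8 adipose genes Lipe fell (median of the list -0.22) and 7 did not pass, while none fell with median centring, with an ordinary variance or without low P/S array 3 and 3 fell without control arrays 1 and 2.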

How the data were processed

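Each mouse gave 1 Affymetrix whole-transcript array, from 500 ng of total RNA without ribosomal RNA reduction, per the labels. The deposited values are linear intensities of probe sets; the authors' method of summarizing and their scaling are not given in the sources used here. They ran from 17.7 to 20294, with array medians from 91.9 to 99.5. Precision is set by how many arrays there are and by the spread between mice. The median standard error over all tested probe sets was 0.062, and among tested members the standard error ran from 0.046 (Derl3) to 0.37 (Igkv6-20). GEO's platform annotation named 1 symbol for 21640 probe sets, several for 1321 and none for 11799; 21553 Entrez IDs matched RefSeq and 0 symbols changed.

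Log2 values of the 22961 named probe sets were taken, those under the 40th percentile of mean level (an intensity of 84.8) were left out as dim, and 13777 were fitted with limma 3.58.1 (R 4.3.3; lmFit and eBayes, two-sided tests), diet being the one term of the model. Genes of the 15 lists were read by their brightest single-symbol probe set. Percentiles and correlations were computed in R, promoters with Python 3.11.15 and pandas 2.3.3. The steps were tested on simulated data. The design text calls the 6 arrays per diet biological replicates.

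All members are named; of each list, the rule took up to 4 tested genes of smallest p, and genes outside it (Sdc1, Prdm1, Xbp1, Tnfrsf13b, Irf4, Herpud1, Ccl25, Ccl28, the dim B cell markers and epithelial genes among them) were chosen after their values were seen. Members and lists were chosen with earlier results of these data known. Alternatives were median centring, quantile normalization, a dim filter at the 60th percentile or none, all probe sets of the table, array weights, a trended robust prior, ordinary variance, the replicate block, a pseudocount of 16, leaving out each array, and leaving out control arrays 1 and 2. The counts without chain probe sets whose control mean was below the dim limit were added after the values were seen.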

Additional observations from a re-analysis of the deposited data

Results flagged for a closer look

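In 20 of 192 groups of 6 mice examined, 1 animal was set far apart from the rest of its diet by Dixon's criterion, and chance alone gives about 1 in 20 such groups; among the members it was 10 of 78. No cause was tested.

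Animals above the rest of their diet were control mouse 2 at 536 in the Ighg3, Igha, Ighv1-33 and Ighv1-26 probe set 10403018, control mouse 6 at 122 and low P/S mouse 1 at 339 in the lambda probe set 10438415, and low P/S mouse 3 at 153 for Mzb1 and at 424 for Igkv6-20. Control mouse 5 stood at 151 for Igkv4-55 and control mouse 3 at 703 for Igkv6-14 with Igkv6-15. Animals below the rest were control mouse 6 at 77.4 for Igha with Ighv1-33, low P/S mouse 2 at 58.6 for Tnfrsf17 and low P/S mouse 5 at 1172 for Igkv1-133 with Igkv1-135.

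Outside the members, low P/S mouse 3 stood above its diet at 253 for Ly86, 182 for Cd79b, 434 for Cxcl13, 160 for H2-DMa, 115 for Ctrb1 and 167 for Trim21. Control mouse 5 was high at 1290 for H2-Ab1 and control mouse 4 at 2516 for Myh11, while low P/S mouse 6 was low at 663 for Actg2 and low P/S mouse 5 at 146 for Cd8a.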

How the results depend on the processing

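Of the 34 tested members 24 passed as higher and 0 as lower; without any 1 array these were 23 to 26 and 0, and without control arrays 1 and 2 they were 24 and 0. Over all probe sets, leaving out 1 array gave 1872 to 2745 higher and 841 to 1114 lower against 2502 and 1009. With quantile normalization 2031 probe sets were higher and 1642 lower, a shift in the balance of the whole table, while 25 members were higher and 0 lower. The median r of the probe sets most like Jchain was 0.89 and 0.86 with quantile normalization.

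The replicate block gave 26 members higher and 0 lower, adding Mzb1 and Pou2af1 (2828 and 1139 over all probe sets). It gave 1 plasma cell factor, Xbp1, higher (adjusted p = 0.0311), and of the signals known to raise Pigr 3 higher and 4 lower. Same-numbered arrays of the diets deviated together with r from -0.11 to 0.38, and 5 of 12 such matches were the best for their array. The main fit did not take the numbers as pairs, and whether same-numbered arrays share a source of variation was not tested.

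With quantile normalization Pigr differed by -0.074. The difference of Pigr was 0.024 with median centring, 0.017 without control arrays 1 and 2 and from -0.048 to 0.033 without 1 array in turn, and that of Igkv6-20 from -0.079 (without low P/S array 3) to 0.44, and 0.74 without control arrays 1 and 2 (adjusted p = 0.0684). Other calls that changed are given with the member. Dim members could not be read reliably: 5 were not tested.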
